A study of Mus musculus with 8 samples.

Results

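The ribosomal protein genes of mouse liver were examined here for DNA methylation: 47 protein-coding genes whose symbol is Rpl or Rps followed by a number, with an optional a or x, or Rplp0 to Rplp2 where covered. They were taken from the 14811 protein-coding genes on chromosomes 1 to 4, most of chromosome 5 and chromosomes 10 to 19, and 75 genes meet the same symbol rule in the whole annotation. Of the 47, 18 encode proteins of the small (40S) subunit and 29 encode proteins of the large (60S) subunit, Rplp0 of the stalk among them. Genes that meet the rule elsewhere in the genome, Rplp1 and Rplp2 included, were not analysed here.

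Whole-genome bisulfite sequencing, in which unmethylated cytosines are converted and methylated ones are not, gave a percent methylation level for each cytosine of a CpG in 8 liver libraries. The male wild-type C57BL/6J mice, an inbred laboratory strain, were 8 weeks old when bought and then received their diet for 28 weeks. Normal diet (ND) was given to 4 libraries' mice, titled WT, and a diet rich in fat, fructose and cholesterol (D09100310) to those of the 4 titled NASH, for nonalcoholic steatohepatitis. The comparison is thus of liver methylation on that diet with liver methylation on normal diet. The labels' treatment field is crossed against the titles, and titles and column names were followed, with the ND columns read as those titled WT, the only group left for them. If the treatment field were right, every direction given here would be reversed. Whether each library is a separate mouse is not stated, and p-values therefore measure only how libraries spread.

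Ribosomal proteins bind ribosomal RNA to form the subunits that decode messenger RNA and join amino acids, and every cell needs them in near equal amounts. Their genes are short, most have a CpG island over the start, and their transcripts begin within a tract of pyrimidines through which mTOR signalling controls their translation. CpG islands at active starts are generally free of methylation, whereas the bodies of transcribed genes and the DNA between genes are generally methylated.

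Each gene was read in up to 5 regions: the span from annotated start to end, its interior (the span without 500 bases at each side), both ends (1000 bases outside to 500 inside) and, where RefSeq gave a start, a promoter core of 250 bases before to 50 after it. Strand was known for 35 of the 47 genes, whose ends are called start end and far end. The other 12 genes have ends called low and high by coordinate. A region's level is the unweighted mean over its listed cytosines, a value after ± is an SD (n = 4 libraries), and each difference is the NASH mean minus the ND mean, in points of percent methylation. Adjusted p-values are from limma with Benjamini-Hochberg adjustment over all genes' regions of that kind. A region was called at an adjusted p under 0.05. The deposited table holds levels without read counts, so the depth is unknown, and a level of 0 can also stand for a cytosine without reads.

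Each library listed 30729668 cytosine positions, of which 12.3% to 13.1% were at 0. Mean methylation over all of them was 71.9% ± 0.516 in ND and 71.5% ± 0.584 in NASH libraries (exact two-sided permutation p = 0.429, smallest possible 0.0286). Ends of hepatocyte marker genes had a median ND level of 32.3%, against 69.1% over all ends and 78.4%, 73.2% and 85.7% for ends of neutrophil, macrophage and lymphocyte markers, in the direction that the liver label implies.

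Promoter sequences are given first, since the results below turn on the CpGs around the start. The stretches run from 150 bases before the RefSeq start to 20 after it on GRCm38.p6, 5′ to 3′ on the gene's strand, with every CpG in capitals. Rpl35 (chr2:39005112-39005281, minus strand) and Rpl11 (chr4:136053374-136053543, minus strand) are the 2 genes with a called region. Rps15 (chr10:80292281-80292450, plus strand) and Rpl22 (chr4:152324286-152324455, plus strand) had the largest core differences between the groups, and Rpl37a (chr1:72711110-72711279, plus strand) and Rps21 (chr2:180257229-180257398, plus strand) the smallest.
Rpl35: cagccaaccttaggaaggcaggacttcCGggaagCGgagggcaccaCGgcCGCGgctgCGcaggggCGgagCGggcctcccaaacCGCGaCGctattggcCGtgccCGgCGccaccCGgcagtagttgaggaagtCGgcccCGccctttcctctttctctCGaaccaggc
Rpl11: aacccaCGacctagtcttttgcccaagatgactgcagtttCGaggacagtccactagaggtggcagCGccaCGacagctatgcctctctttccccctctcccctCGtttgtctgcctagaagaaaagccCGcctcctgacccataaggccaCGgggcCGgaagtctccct
Rps15: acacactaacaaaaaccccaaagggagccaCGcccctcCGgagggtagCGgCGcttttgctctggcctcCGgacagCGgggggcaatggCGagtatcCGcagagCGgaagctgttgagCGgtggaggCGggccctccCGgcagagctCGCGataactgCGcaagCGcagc
Rpl22: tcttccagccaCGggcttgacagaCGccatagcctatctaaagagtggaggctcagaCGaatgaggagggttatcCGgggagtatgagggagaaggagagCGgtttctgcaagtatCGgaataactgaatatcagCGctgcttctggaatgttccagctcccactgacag
Rpl37a: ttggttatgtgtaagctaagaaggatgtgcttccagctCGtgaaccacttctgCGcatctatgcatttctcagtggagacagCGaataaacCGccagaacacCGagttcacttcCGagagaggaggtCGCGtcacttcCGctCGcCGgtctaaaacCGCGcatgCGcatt
Rps21: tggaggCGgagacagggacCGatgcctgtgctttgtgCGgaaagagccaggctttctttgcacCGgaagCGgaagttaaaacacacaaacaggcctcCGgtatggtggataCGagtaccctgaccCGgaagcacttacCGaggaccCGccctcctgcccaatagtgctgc
The Rpl35 stretch holds 18 CpGs and averaged 2.51% in ND and 0.255% in NASH libraries, and the ND mean was 0.648% without ND4, which was at 8.10%. The Rps21 stretch, with 10 CpGs, averaged 0.302% and 0.170%, and that of Rpl37a, with 14 CpGs, 0.648% and 0.298%. Rpl22 stood apart: its 7 CpGs averaged 87.4% in ND and 92.0% in NASH libraries, and none of its 14 listed cytosines was at 0 in all libraries. The largest difference among the 14 was at 1 cytosine 92 bases before the start, at 35.8% in ND (ND2 at 0%) and 93.75% in NASH. The other cytosines differed in both directions.

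Promoters of the ribosomal protein genes were rich in CpGs. Over the 300-base window of the RefSeq promoter table, the 35 promoters, 1 for each gene, held a median of 21 CpGs (8 to 35). The median of all 32851 promoters, alternative starts included, was 7, and median GC content was 57.0% against 52.7%. These sets are unlike, and the motif shares below use the same 32851. Among tested cores, 1 for each gene, the contrast was smaller, with a median of 42 listed positions against 36 over all 9679. The letters CCGGAA, the core of sites for GABP and other Ets factors, stood on either strand in 18 of the 35 (51.4%), among them Rpl11, Rpl35, Rps2 and Rps21, and in 14.9% of all promoters. The CGCG box stood in 4 (Rpl12, Rpl26, Rps28 and Rps6), or 11.4%, against 0.466% of all. AAGATGGC, the YY1 motif, stood in 3 (8.57% against 2.75%), and TATAAA, the TATA box, in 4 (11.4% against 13.6%). A pyrimidine tract was searched on the gene's strand in the 11 bases around the start, as CTTTC. The same search allowed CTTCC as a second form. It allowed CTTTT as the last form, and 8 promoters (22.9%) held any of them, against 3.60% of all. The motifs were counted independently, with no overlap removed, and a match describes letters, not binding.

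Ribosomal protein promoters were close to unmethylated in both diets. The median core level over 35 genes was 0.788% in ND and 0.743% in NASH libraries, beside 1.80% and 1.61% over all 9679 cores tested. In ND libraries 34 of the 35 cores (97.1%) were under 10%, against 74.4% of all cores. The lowest were Rpl41 at 0.156%, Rps28 at 0.313% and Rpl27 at 0.331%. Of the 1493 cytosines in the 35 cores, 93.5% to 96.5% were listed at 0 in a given library and 1080 (72.3%) in all 8. The exception was Rpl22, a large-subunit protein gene, at 87.6% ± 3.1 in ND and 91.8% ± 2.2 in NASH libraries.

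The methylation of 3 genes at their outermost annotated start depended on which start was read. At Rpl22, a second RefSeq promoter 1290 bases into the gene was at 1.30% in ND and 0.438% in NASH libraries. Rps2, which encodes a small-subunit protein, had the highest start end, 94.3% ± 2.7 in ND, while its RefSeq promoter, 1942 bases further in, was at 0.414%. Rpl38 had a start end at 34.3% ± 3.8 and a promoter core, 762 bases in, at 0.762%. In each of the 3, a promoter inside the annotated span was thus unmethylated, and the high level belonged to the outer annotated start.

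The unmethylated stretch extended from the start into the gene. Averaged over the 35 genes in bins of 250 bases from the RefSeq start, ND levels were 3.58% just before the start, 3.66% just after it and still 6.19% from 750 to 999 bases inside, where the other protein-coding genes were at 21.6%, 23.1% and 39.5%. Levels then reached 60.2% ± 1.93 at 1500 to 1749 bases inside and 56.7% ± 1.77 in the bin that begins 1000 bases outside. NASH levels in those bins were 59.3% ± 2.66 and 56.5% ± 1.05, within the spread between libraries. The stretch, taken as running outward from the start until 6 listed positions in a row averaged 50% or more, had a median width of 1947 bases in ND and 1973 in NASH libraries. It reached a median of 646 bases upstream and 1184.5 downstream in ND, and was longer downstream at 30 of the 35 genes. It was wider in NASH at 17 genes and narrower at 17, with 1 unchanged. The unchanged gene was Rpl22, also counted among the 30. The start read there was methylated, so its 114 bases in every library are not an unmethylated stretch.

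**Figure D1:**
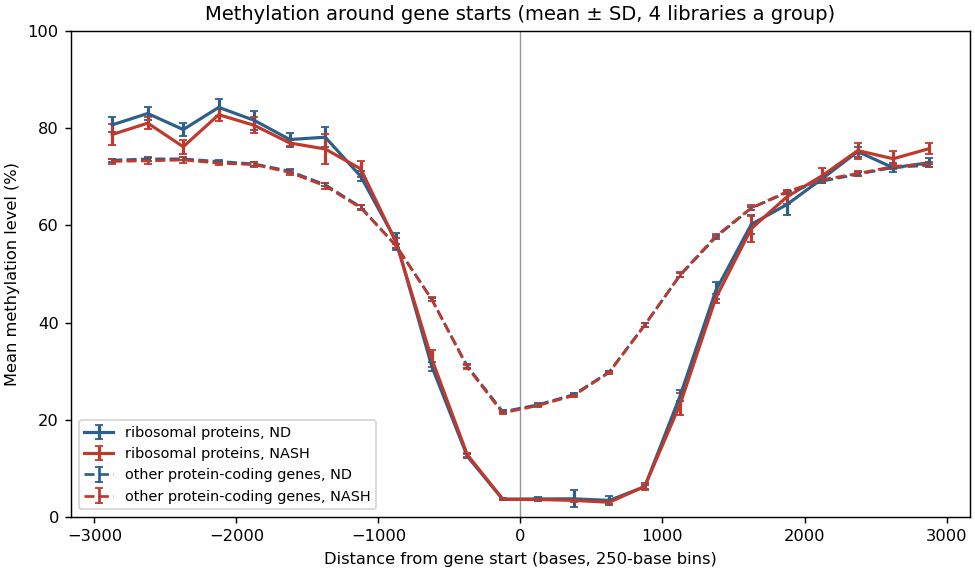
Mean methylation level (%) in 250-base bins from 3000 bases before to 3000 after the gene start, for 35 ribosomal protein genes (solid) and other protein-coding genes (dashed), ND blue and NASH red; bars are SDs over 4 libraries. The ribosomal protein genes stay under 7% from 250 bases before to 999 after the start, where the other genes lie between 21.4% and 39.5%, and the ND and NASH lines run together there.

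The genes were short, with a median length of 3269 bases (982 to 9647). At 2000 to 2249 bases after the start, their mean ND level was 69.6%, against 69.1% in the other protein-coding genes. At 2250 to 2499 bases it was 75.2%, against 70.5%. Spans and interiors of the ribosomal protein genes, which can include part of the unmethylated stretch, were less methylated than those of most genes. Median span methylation was 18.96% in ND and 19.6% in NASH libraries, against 69.9% and 69.8% over all genes, and median interior methylation was 27.2% and 25.8%, against 75.5% and 75.3%. Interiors ranged from 1.86% at Rps29 and 3.29% at Rps23, both small-subunit genes, to 62.1% at Rps26 and 64.2% at Rpl24. Far ends had a median of 76.3% in ND and 77.6% in NASH libraries, near the 83.1% and 82.6% of all genes. The far end of Rpl41, whose gene spans 1059 bases, was at 1.56%, whereas those of Rpl34, Rpl22 and Rps26 were at 89.6%, 93.9% and 96.0%. Small-subunit and large-subunit genes had median interiors of 23.1% and 29.6%, and median cores of 0.570% and 0.998%, with no test made between them.

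**Figure D2:**
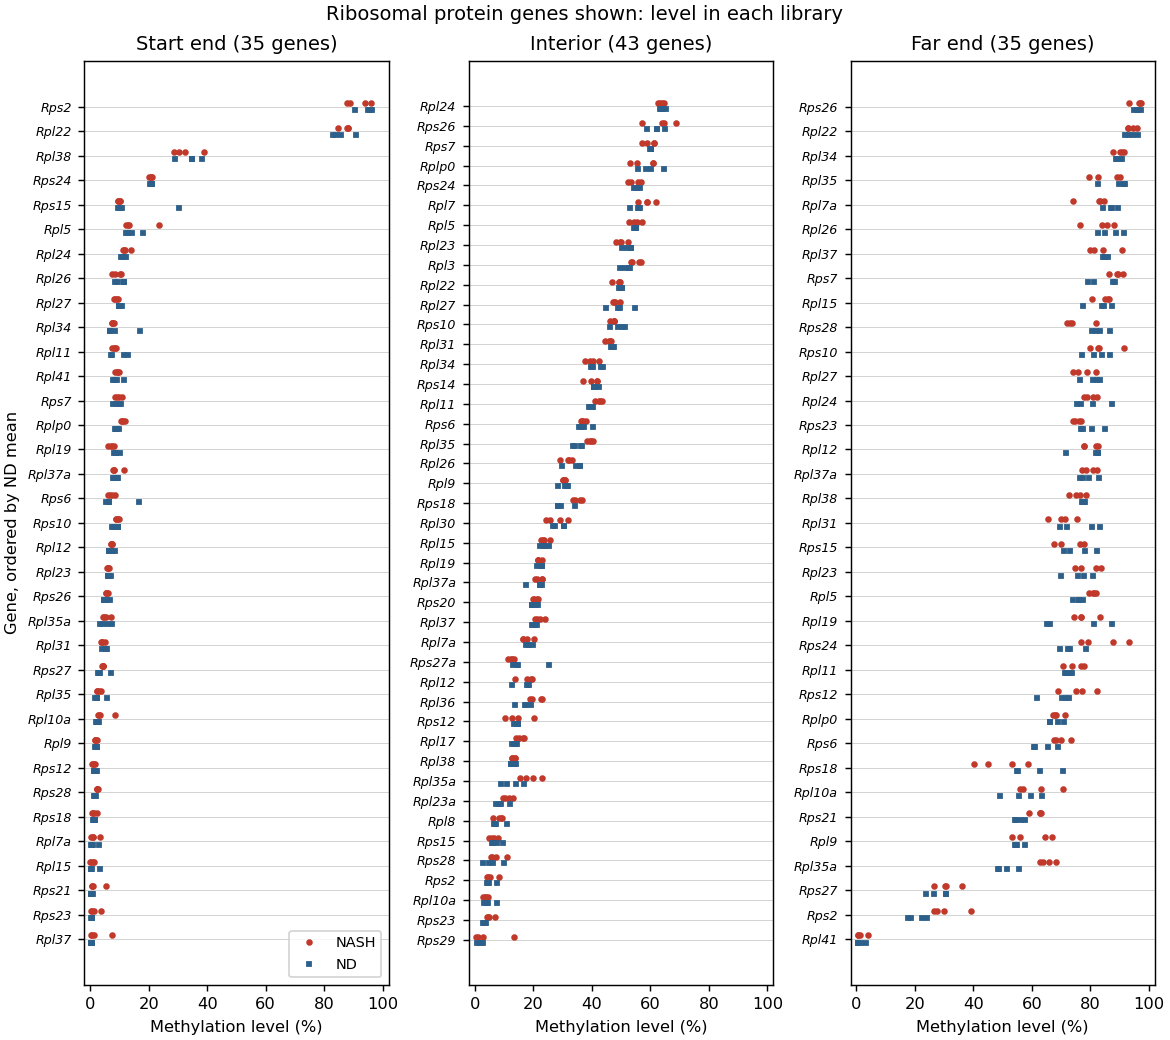
Methylation level (%) of the start end, interior and far end of ribosomal protein genes in single libraries (1 interior not shown), ND as blue squares and NASH as red circles, genes ordered by ND mean. Start ends lie mostly under 15%, with Rps24, Rpl38, Rpl22 and Rps2 above it, interiors spread from 1.86% to 64.2%, and far ends lie mostly above 50%.

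Pseudogene copies of these genes were highly methylated. Named pseudogenes exist for 38 of the 47 genes, 215 in all, with 24 for Rpl31 and 23 for Rps12. Of those covered, 129 had at least 6 listed positions, and their median level was 90.9% in ND and 90.2% in NASH libraries, with 3 under 50% in ND. Reads from a gene and its near-identical copies could have been shared, so the exonic values of genes with many copies are uncertain. The spans of 13 of the genes also hold 30 annotated snoRNA genes, whose RNAs mostly guide the modification of ribosomal RNA, and 21 have an end that overlaps another protein-coding gene.

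Between the diets, mean methylation over the interior rose at 2 ribosomal protein genes, Rpl35 and Rpl11, and no end, span or promoter core passed the test. Of 44 interiors tested, 2 were called, both higher in NASH, while 10.6% were called among all 13653 interiors, 7.02% higher and 3.6% lower. With limma, 0 of 94 ends, 0 of 47 spans and 0 of 35 cores were called, where 0.0103% of 29125 ends, 8.3% of 14632 spans and 0.0% of 9679 cores were called among all genes. Ends and cores were thus seldom called for any gene, and the lack of a call there does not show unchanged methylation. Of 32 hepatocyte marker ends, 0 were called, although the groups did not overlap at 14 (43.8%, against 8.23% of all ends). At an unadjusted p under 0.05 there were 16 ends, 7 spans, 11 interiors and 2 cores, beside 12.96%, 24.1%, 26.5% and 6.34% of all genes' regions of those kinds. Under the alternatives, between 0 and 2 ends and between 0 and 1 spans were called, and no core was.

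Rpl35 encodes a large-subunit protein near the exit of the nascent chain tunnel. Its interior (chromosome 2, 39002082 to 39004630, 72 positions) was at 33.6%, 36.3%, 36.8% and 34.3% in the ND libraries and at 38.2%, 40.4%, 39.3% and 39.6% in the NASH libraries. Every NASH library lay above every ND library. The mean rose from 35.2% ± 1.5 to 39.4% ± 0.88, by 4.12 points (SE 0.885, adjusted p = 0.0266 with limma). In bins of 500 bases from the start, levels were 8.23% and 10.6% at 500 to 999 bases, 19.8% and 27.4% at 1000, 49.8% and 52.4% at 1500 and 49.3% and 57.5% at 2000, in ND and NASH respectively. These bins held 24, 10, 20 and 10 positions, and ND and NASH libraries overlapped in each of them. At 2000 bases the SDs were 9.57 in ND and 5.70 in NASH. The start end was at 3.03% and 2.84% and the far end, which overlaps Wdr38, at 88.9% ± 4.4 and 85.3% ± 5.1, neither of which was called. The call ended when 1 of 5 single libraries was left out (NASH2, NASH3, NASH4, ND1 or ND4), with adjusted p between 0.0502 and 0.0707, and when every zero was left out (0.398). It also ended with replicate number as a block, as given in the last section.

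Rpl11 encodes a large-subunit protein that also binds Mdm2, the ligase that degrades p53, when ribosome assembly is disturbed. Its interior (chromosome 4, 136049855 to 136052892, 126 positions) was at 40.1%, 40.3%, 38.9% and 39.7% in the ND libraries and at 41.2%, 42.4%, 42.6% and 43.5% in the NASH libraries. The groups did not overlap, though NASH1, the lowest, lay near ND2, the highest of its group. The mean rose from 39.8% ± 0.63 to 42.4% ± 0.93, by 2.67 points (SE 0.657, adjusted p = 0.0416 with limma). The largest difference among 500-base bins within the gene stood in 18 positions at 3000 to 3499 bases from the start, at 51.1% ± 5.87 in ND and 72.3% ± 10.4 in NASH. Interior bins nearer the start went both ways. ND and NASH levels were 1.63% and 0.437% at 500 bases (54 positions) and 76.2% and 73.3% at 1500 (18). They were 1.56% and 2.26% at 1000 (4), 85.3% and 86.4% at 2000 (22) and 73.5% and 83.1% at 2500 (8). The rise was thus not spread over the whole interior. The call ended when any library but NASH1 was left out (adjusted p between 0.0684 and 0.0998), on the logit scale (0.0569), when doubtful zeros (0.0758) or every zero (0.212) were left out, and when regions identical in all libraries were left out (0.0520). As at Rpl35, it also ended with replicate number as a block.

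Rpl35a, which encodes a large-subunit protein affected in some families with Diamond-Blackfan anaemia, had the largest difference among the 94 ends. Its far end (chromosome 16, 33059689 to 33061189, 20 positions) was at 48.7%, 55.6%, 51.4% and 48.5% in ND and 62.8%, 63.7%, 68.2% and 66.0% in NASH libraries. The 4 NASH libraries all lay above the 4 ND libraries. The means were 51.1% ± 3.3 and 65.2% ± 2.4, a difference of 14.1 points (SE 2.30, limma adjusted p = 0.0712), which did not pass the threshold. It did pass with a prior variance that does not depend on the mean (adjusted p = 0.0376) and with ends of 2000 bases on each side, where the difference was 9.82 points (0.0156). Along the gene, levels in ND and NASH were 2.21% and 0.284% in the first 500 bases, then 19.6% ± 2.06 and 38.3% ± 2.63 at 2000 to 2499 bases, 35.2% ± 4.81 and 55.3% ± 9.2 at 2500, and 23.4% ± 4.03 and 47.3% ± 10.7 at 3000. The start end was at 5.35% and 5.33%, and the interior as a whole, at 12.8% ± 3.5 and 18.97% ± 3.3, gave an adjusted p of 0.111. Its interior libraries overlapped, with ND4 at 16.98% and NASH2 at 15.4%.

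**Figure D3:**
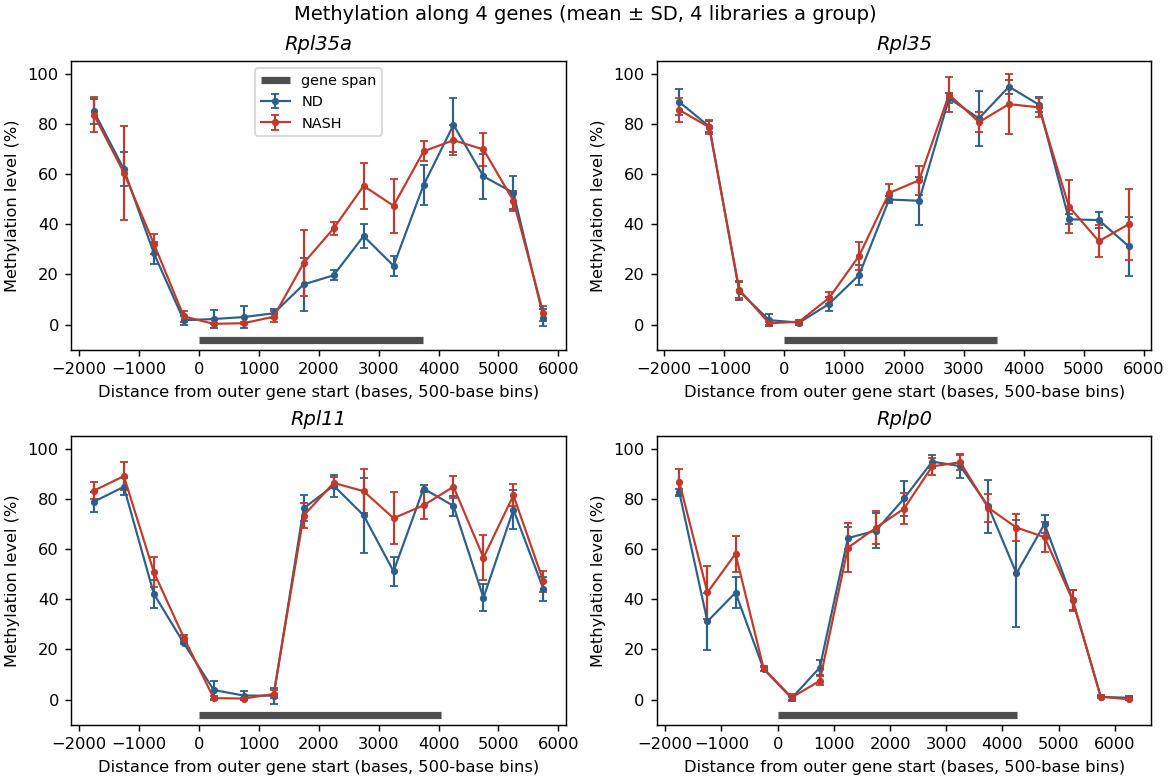
Methylation level (%) in 500-base bins against distance from the outer gene start for Rpl35a, Rpl35, Rpl11 and Rplp0, ND blue and NASH red, bars SD over 4 libraries, with the gene span as a grey bar. At Rpl35a the lines part between 2000 and 3499 bases from the start (19.6% to 35.2% in ND, 38.3% to 55.3% in NASH), and in all 4 genes both lines are near 0 just inside the start.

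Other genes had differences that did not pass the test. Rps18 encodes a small-subunit protein in the head of the 40S particle, and its interior was at 28.4%, 28.3%, 34.1% and 29.3% in ND and 33.4%, 34.2%, 36.7% and 36.1% in NASH libraries. ND3 alone overlapped the NASH range. The difference was 5.07 points (SE 1.45, limma adjusted p = 0.0673), and without ND3 it was 6.43 points (0.0146), past the threshold. The far end of the same gene, which overlaps B3galt4, went the other way, at 60.8% ± 7.5 and 49.2% ± 8.2 (limma adjusted p = 0.389), with overlapping libraries. Rpl3, which encodes a large-subunit protein that reaches towards the peptidyl transferase centre, had a span at 36.5%, 35.5%, 38.1% and 38.0% in ND and 39.3%, 38.7%, 42.6% and 41.6% in NASH. Every NASH library was higher, by 3.53 points on average (limma adjusted p = 0.0855).

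Groups did not overlap at 11 of 94 ribosomal protein ends, 9 higher and 2 lower in NASH, beside 8.23% of all ends (4.25% higher, 3.99% lower). Of the 2 lower ends, 1 was a start end (Rpl27, below) and 1 a far end of a small-subunit gene, whose values are not given here. Rps2 was at 18.8%, 24.2%, 22.5% and 17.6% in ND and 27.6%, 30.1%, 26.5% and 39.1% in NASH libraries at its far end, which overlaps Ndufb10. NASH4 was the highest of these, and the difference was 10.0 points (limma adjusted p = 0.203). Rpl5, which forms a complex with Rpl11 and the 5S ribosomal RNA, had a far end of 16 positions, shared with Dipk1a, at 76.0% ± 1.4 in ND, with 80.9% ± 0.99 in NASH (adjusted p = 0.145). Rps21 had a far end, shared with Cables2, at 55.5% ± 1.6 and 61.9% ± 2.0 (adjusted p = 0.191). Rplp0, the stalk protein widely used as a reference transcript, had a start end at 8.999% ± 0.51 and 11.2% ± 0.49 (adjusted p = 0.110). The rise stood mostly in the 500 bases of that end farthest outside the gene. That bin, of 22 positions, was at 42.6% ± 6.26 in ND and 58.1% ± 7.07 in NASH, with overlap. The 500 bases just before the start were at 12.2% and 12.5%, and the first 500 inside at 0.570% and 0.865%. The promoter core was at 0.985% and 1.11%, with overlap. Among these ends, the start end of Rplp0 had the smallest spread and the far end of Rps2 the widest.

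Smaller separations occurred at ends with low methylation. The start end of Rps28 was at 1.33%, 1.53%, 1.93% and 1.83% in ND and 2.66%, 2.19%, 2.26% and 2.48% in NASH libraries (0.743 points, limma adjusted p = 0.272). Rpl27 had its start end lower in every NASH library, with means of 10.2% ± 0.39 in ND and 8.87% ± 0.62 (adjusted p = 0.297). At the high end of Rps29, ND libraries were between 2.22% and 2.52%, and NASH1 was at 18.5% with the other NASH libraries at 2.70% to 5.81% (adjusted p = 0.507). A large difference with overlap was seen at the far end of Rps24, on 10 positions, at 73.3% ± 3.7 and 84.2% ± 7.6 (adjusted p = 0.274). The far end of Rps28 was lower in NASH, at 83.1% ± 2.6 and 75.2% ± 4.6 (adjusted p = 0.232), with overlap. Both signs thus occurred at start and far ends.

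**Figure D4:**
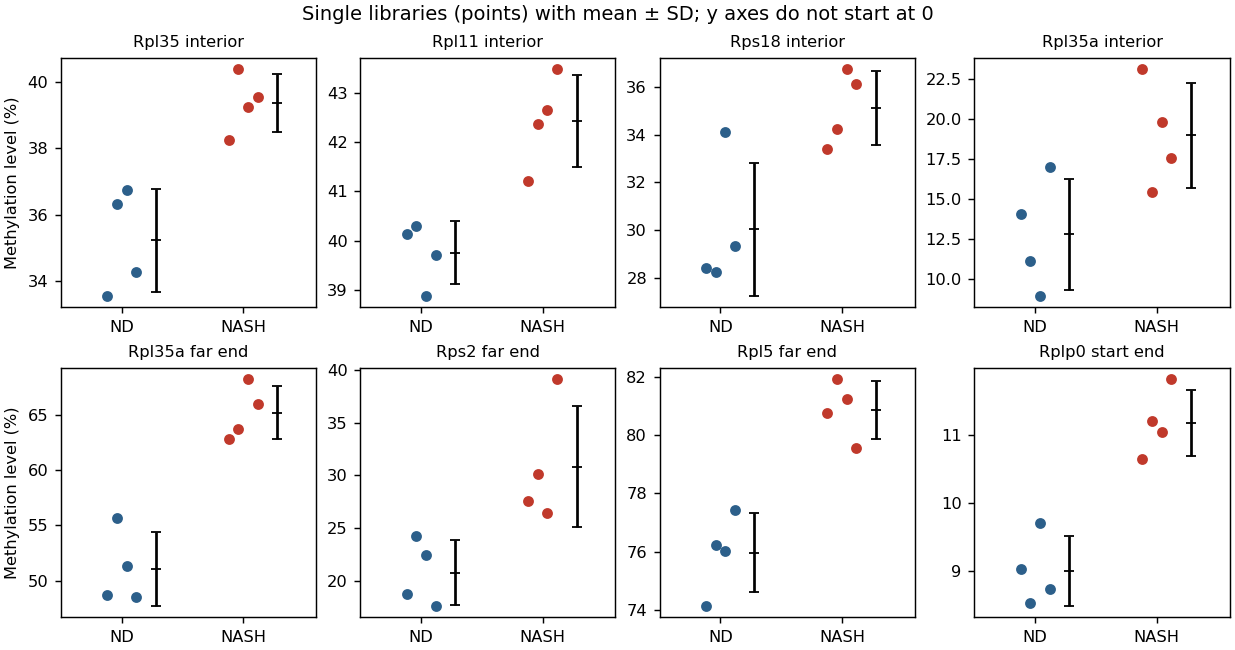
Methylation level (%) in each library for 8 regions of ribosomal protein genes, ND blue and NASH red, with the mean and SD beside the points; the y axes do not start at 0. The interiors of Rpl35 and Rpl11 were called, and the other 6 regions did not pass the threshold; ND and NASH points overlap at the Rps18 and Rpl35a interiors.

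As a group, the genes moved little. The median difference was -0.0175 points over 35 start ends, 0.593 over 35 far ends, 0.0855 over 47 spans, -0.0128 over 44 interiors and 0.120 over 35 cores. Over all genes the same medians were -0.128, -0.276, -0.246, -0.249 and -0.0764. Far ends were higher in NASH at 22 of 35 ribosomal protein genes (62.9%), against 44.7% of all far ends. Against the 5th to 95th percentile of all genes, 5 of 35 far ends, 3 of 47 spans and 4 of 44 interiors lay outside, and no start end or core did. The mean over the 35 far ends was 71.2% ± 0.501 in ND and 72.3% ± 0.868 in NASH libraries, with overlap. The mean over the 35 start ends was 12.3% ± 0.739 and 12.04% ± 0.0845.

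**Figure D5:**
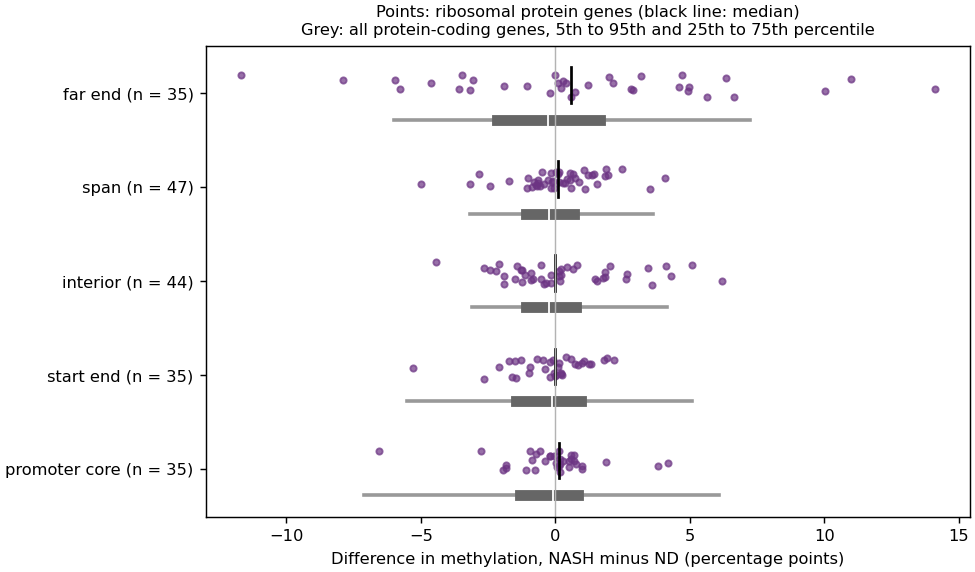
Difference in methylation, NASH minus ND in percentage points, for each ribosomal protein gene (points, black line at the median) by kind of region, with the 5th to 95th (thin) and 25th to 75th (thick) percentile of all protein-coding genes in grey. Core and start end points lie within the grey 5th to 95th percentile range, while 5 far ends, 4 interiors and 3 spans lie outside it, the farthest at 14.1 points (Rpl35a).

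Single libraries set some values at promoters. The core of Rps15, a small-subunit gene, was at 0.357%, 0.833% and 0.778% in ND1 to ND3, at 27.1% in ND4, and at 0% to 1.15% in the NASH libraries. In ND4, the 19 CpGs with both strands listed averaged 0.376% on the gene's strand and 51.5% on the other strand, with 7 cytosines at 100% there. Without ND4 the core difference went from -6.55 to 0.0679 points. The core of Rpl37 was at 16.3% in NASH4 and 0% to 0.978% elsewhere, with 32.6% on the gene's strand and 0% on the other over 23 CpGs, and without NASH4 the difference went from 3.83 to -0.177 points. The core of Rpl11 was at 10.6% in ND1 and 0% to 1.25% in the other ND libraries, with 20% on the gene's strand and 1.11% on the other over 10 CpGs. Only 2 of those cytosines on the gene's strand, both at 100%, and 1 on the other were above 0 in ND1. The core of Rpl35 was at 6.79% in ND4 and 0% to 0.926% in the other ND libraries, with 13.9% on the gene's strand and 0% on the other over 24 CpGs. In each of the 4 genes the methylation of that library stood nearly all on 1 strand, and what gave it was not tested.

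Hepatocyte and leukocyte markers moved with the diet groups in the same libraries. All 32 ends of 16 hepatocyte genes were higher in NASH, as were 44.9% of all ends, with list means of 38.1% to 39.1% in ND and 47.2% to 52.1% in NASH libraries. Ends of neutrophil markers averaged 75.6% to 77.0% in ND and 71.0% to 73.0% in NASH (higher at 4 of 20 ends), those of macrophage markers 67.2% to 69.1% and 65.9% to 67.2% (8 of 22), and those of lymphocyte markers 82.6% to 85.6% and 76.8% to 81.2% (1 of 12). The part of these shifts in the differences at Rpl35, Rpl11 and Rpl35a was not tested. In whole liver, a changed mixture of cell types and changed methylation within a cell type cannot be told apart.

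Genes that act with the ribosomal proteins were read in the same way, and no end of any of them was called. Of 59 mitochondrial ribosomal protein genes, whose products form the separate ribosome of mitochondria, 3 spans rose and 1 fell, and 3 of 58 interiors rose and 1 fell, shares below the 8.3% of spans and 10.6% of interiors called over all genes. Mrpl14 rose in its interior from 44.1% ± 1.02 to 48.8% ± 1.06 (adjusted p = 0.0108 with limma), Mrps18a and Mrpl36 also rose, and Mrpl52 (span) and Mrpl2 (interior) fell. Their median core was 0.8286% in ND, close to the 0.788% of the cytosolic genes, while their median interior was 77.4%, against 27.2%. The interiors are unlike in size, with a median of 157 listed positions, against 80 in the cytosolic genes, where the unmethylated stretch reaches into the interior. Of 30 ribosome assembly genes with a tested region, Nmd3, the export adaptor of the large subunit, and Tsr1, a late factor of the small subunit, rose in span and interior, 2 calls of each kind beside the same 8.3% and 10.6%. Among 25 translation factors, Eif3h alone was called, higher in span and interior, again below those shares.

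Genes that control ribosomal protein synthesis, 21 with a tested region, had 3 spans called higher and 1 lower, and 4 interiors called higher, beside 8.3% of spans and 7.02% of interiors (higher) over all genes. These counts are descriptions of short lists, with no test of a list. Eif4ebp2, a repressor of cap-dependent translation under mTOR, had the largest of these, with an interior at 60.1% ± 0.915 in ND, and 66.9% ± 0.805 in NASH (6.74 points, limma adjusted p = 0.00328). Larp1, which binds the pyrimidine tract of ribosomal protein transcripts, rose in its interior from 52.4% ± 0.723 to 55.3% ± 0.655 (adjusted p = 0.0270). Deptor and Rictor, an inhibitor and a subunit of mTOR complexes, rose by 2.94 and 1.35 points in their interiors, and the span of Max, the partner of Myc, fell by 2.07 points. A separate list held ribosomal proteins and their paralogues outside the symbol rule. Of its spans, 1 of 10 was called, beside 8.3% of all spans, and of its interiors 0 of 8. The called span was that of Rpl32l, a gene that resembles a ribosomal protein gene, which rose from 35.7% ± 4.2 to 64.9% ± 7.5 (limma adjusted p = 0.00604). Reads from Rpl32l may have been shared with near-identical copies, so its level is uncertain.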

How the data were processed

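Whole-genome bisulfite libraries of 8 livers were grouped by title into 4 NASH and 4 ND. The authors deposited 1 table of percent methylation per CpG cytosine, with each strand apart. Per the submitters' processing notes, FastQC and mm10 were used. The aligner and caller were not given in the sources used here, and deposited percent values carry no read counts, so depth is unknown and no interval was computed.

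The table was read for 15 chromosomes. 326824 positions on 85 contigs and 1 incomplete line were left out. Of 512388 promoter CpG cytosines, 100% were listed when table positions were taken as 1-based plus 1, and gene regions were shifted to match. Regions came from RefSeq GRCm38.p6, and strand and starts from its promoter table, where 35 of the 47 genes matched.

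Regions with at least 6 positions were fitted over all protein-coding genes with limma 3.58.1 (R 4.3.3), with a mean-dependent prior variance and no covariate. The script was tested on simulated data. The genome-wide mean was compared over the 70 assignments of libraries. Python 3.11.15, numpy 2.4.6, pandas 2.3.3 and matplotlib 3.10.9 did the rest.

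The values of 1 member are not reported singly here. The members and the gene lists were chosen with earlier results of these data known. Genes with a called region were named, and Rplp0. Further members were taken from the 6 largest differences and the 3 highest and 3 lowest ND levels per kind of region, and not all of those are given. Of other lists, genes with a call were named. Other genes, and regions given library by library, were chosen after their values were seen. The alternatives were a replicate block, each library left out, a logit scale (offset 0.5 positions), at least 12 positions, doubtful zeros (10 nearest positions with a median of 50% or more) or every zero left out, no trend, and ends of 2000 bases on each side. Leaving out regions identical in all libraries was added after seeing the data.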

Additional observations from a re-analysis of the deposited data

Results flagged for a closer look

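In 8 groups of 4 libraries, 1 library lay far from the other 3, among 46 groups examined this way, where chance gives about 1 in 20. At the Rps15 core ND4 was at 27.1% (others 0.357% to 0.833%), and at the Rps15 start end it was at 30.4% (others 9.46% to 11.04%). At the Rpl11 core ND1 was at 10.6% (others 0% to 1.25%) and NASH1 at 0.714% (others 0%). At the Rpl37 core NASH4 was at 16.3% (others 0% to 0.543%). At the Rpl22 core ND3 was at 92.2% (others 85.5% to 86.6%), and at the Rpl22 start end NASH3 was at 84.8% (others 87.8% to 88.1%). At the Rps21 far end NASH1 was at 58.9% (others 62.7% to 63.1%), and all 4 NASH libraries there were still above the highest ND library at 57.6%. The regions were chosen after their values were seen.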

How the results depend on the processing

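Counts of called regions moved with several settings. All ends had 3 calls, and 0 with the replicate block, 12 on the logit scale, 14 without doubtful zeros, 0 without any zero, 145 without the trend, 696 with ends of 2000 bases on each side, and 0 to 2 with 1 library left out. Leaving out ends identical in all libraries, added after seeing the data, gave 92 (69 higher, 23 lower). Spans had 1214 calls, and 343 with the block, 235 without any zero, and 600 to 1160 with 1 library left out. Interiors had 1450, and 713 with the block, 635 without any zero, and 794 to 1451 with 1 library left out. Cores had 0, and 5 without any zero and 2 without the trend. Ribosomal protein ends had 0 calls, and 1 without the trend and 2 with ends of 2000 bases on each side. Their spans had 0, and 1 without any zero. Their interiors had 2, and 1 each with the block, on the logit scale, without doubtful zeros, without any zero and without identical regions, and 0 to 2 with 1 library left out. The interior called with the block was that of Rps18, and the 1 called without any zero was neither that of Rpl35 nor that of Rpl11. The cause was not tested.

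Whether replicate numbers in the titles pair the libraries is not stated. Same-numbered libraries hardly correlated (0.00267 to 0.0288), although 5 of 8 libraries correlated best with their own number, so pairing was neither shown nor excluded. Under the replicate block Rps18 was called in its interior (adjusted p = 0.04999), and Rpl35 (0.0502) and Rpl11 (0.125) were not.

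The median difference of ribosomal protein start ends was 0.394 without any zero, and that of cores lay between -0.0721 and 0.117 with 1 library left out. None of the sign changes below was of a called region. Without any zero the difference was 7.77 at the Rps15 start end, -2.94 at the Rpl10a start end, -2.47 at the low end of Rpl3, -9.61 at the low end of Rpl8, 11.9 and 3.65 at the span and interior of Rps27a, -1.22 and -0.510 at those of Rpl36, and 0.703 and 0.557 at those of Rplp0. Without doubtful zeros, or any zero, it was -1.10 at the far end of Rplp0, which was at -0.00992 with ends of 2000 bases. With 1 library left out, it lay between -3.10 and 0.363 at the Rpl34 start end (sign changed without ND4), -8.85 and 0.0679 at the Rps15 core (ND4), -0.177 and 5.26 at the Rpl37 core (NASH4), -0.173 and 1.68 at the Rplp0 far end (NASH4), -1.48 and 0.207 at the Rplp0 span (NASH1 or ND3), and -0.0553 and 0.504 at the Rplp0 core (ND2 or ND3). Leaving out every zero also removes cytosines that are unmethylated, which make up most of a promoter core here.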
